A study of Mus musculus with 10 samples.

Results

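The 9 genes described here encode the core of transforming growth factor beta (TGF-beta) signaling: the ligand Tgfb1, the receptors Tgfbr1 and Tgfbr2, the signal transducers Smad2, Smad3 and Smad4, the inhibitory Smad7, and the corepressors Ski and Skil. They were selected by gene symbol as members of the pathway, with earlier results of these data known. All 9 were found among the 24981 genes listed for both splenic NK cells and liver type 1 innate lymphoid cells (ILC1). RNA was sequenced from sorted cells of BALB/c mice that had received vehicle or tofacitinib by oral gavage for 1 week, which asks how blockade of Janus kinases (JAK) affects the transcriptomes of both cell types in vivo. NK cells were sorted from spleen as CD3- NKp46+ cells, and ILC1 from liver as CD3- NKp46+ DX5dim TRAIL+ cells. Each cell type had 3 libraries from vehicle mice and 2 from tofacitinib mice. Every library was made from cells pooled over several mice, so p-values measure the spread between pools, and since these are bulk samples, fewer cells of a type and less RNA per cell cannot be told apart.

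TGF-beta is secreted in a latent complex and, once activated, binds the type II receptor (Tgfbr2), which recruits and phosphorylates the type I receptor (Tgfbr1). The activated type I receptor phosphorylates Smad2 and Smad3, which join Smad4 and enter the nucleus to regulate target genes, among them Smad7, a feedback inhibitor of the receptors, and Skil, a corepressor of the Smad complex. In mouse NK cells the pathway is known to restrain proliferation and effector function and to promote traits shared with ILC1 and tissue-resident cells. Tofacitinib is a JAK inhibitor that blocks the signals of many cytokines, including interleukin-15 and other cytokines on which NK cells and ILC1 depend.

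Libraries had between 29199973 and 79258362 alignments. Values are RPKM, a read density corrected for exon length and for the number of mapped reads, and changes are differences of mean log2(RPKM + 0.1), tofacitinib minus vehicle. Eomes, an NK cell transcription factor, ranged from 173 to 212 RPKM in NK cells, against 2.44 to 6.29 RPKM in ILC1. The integrin Itga1 was at 19.4 to 40.0 RPKM in ILC1 and 0.757 to 1.47 RPKM in NK cells, and Cd200r1 and Cxcr6 were also higher in ILC1. Not every listed marker followed its label: Tbx21, on both lists, was at 149 to 216 RPKM in NK cells and 64.3 to 137 in ILC1. The ILC1 list summed to 847 to 1243 RPKM in NK cells and 876 to 1626 in ILC1. In NK cells the NK cell list was lower with tofacitinib (2072 and 2136 against 2374 to 2506 RPKM), and so was the ILC1 list (847 and 871 against 1147 to 1243). Ncr1, the NKp46 gene and on both lists, was at 638 and 645 against 935 to 1013 RPKM. Of the other NK cell markers, Eomes, Itga2, Tbx21 and Klrg1 were also below vehicle. S1pr5 was above it (129.9 and 130.4 against 111.1 to 125.7), and Itgam and Klrd1 overlapped. TRAIL, NKp46 and DX5 served for sorting. Of the ILC1 libraries, vehicle 2 and tofacitinib 1 shared a sequencing run (run B), vehicle 3 and tofacitinib 2 shared another (run A), and vehicle 1 was alone in run C. Both libraries of run B had low medians over the tested genes, 7.58 and 8.94 RPKM, against 11.9 to 13.2 RPKM in the other ILC1 libraries and 12.5 to 12.9 RPKM in NK cells. Levels in ILC1 are therefore given as RPKM and as scaled RPKM, in which each library is multiplied to the same median. ILC1 tofacitinib 1 also stood apart by its markers of other cells: 10 neutrophil markers summed to 166.9 RPKM (2.87 to 16.5 in the other ILC1 libraries), and 10 erythroid markers to 338.0 RPKM (53.7 to 72.1 in the others). Among NK libraries, vehicle 1 had the highest sums of these lists. Its erythroid markers were at 290.5 RPKM (68.2 to 117.6 in the others) and its neutrophil markers at 13.88 RPKM (3.24 to 4.67). The 8 B cell markers summed to 15.75 and 25.2 RPKM in the ILC1 tofacitinib libraries, above the 6.28 to 11.55 of vehicle, and the 11 macrophage markers to 1.45 and 2.25, below the 2.35 to 5.30 of vehicle. In NK cells, where several lists stood apart, liver endothelial markers were above vehicle with tofacitinib (82.5 and 92.8 against 69.2 to 76.5 RPKM). So were hepatocyte markers (16.48 and 17.99 against 13.6 to 15.5), although the hepatocyte gene Alb was at 0 to 0.04 RPKM in NK cells. The sum of dendritic cell markers was below (14.3 and 16.5 against 19.0 to 22.5). Most of that sum was Bst2 (12.5 and 14.5 against 17.5 to 20.8), while Zbtb46 of the same list was above vehicle (1.085 and 1.408 against 0.932 to 0.954). The part of these cells in the results was not tested.

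Expression of the TGF-beta core was measurable in both cell types, and all 9 genes passed the filter on low values in each. In NK cells, Smad3 was the member with the highest level (57.0 to 75.2 RPKM), followed by Tgfb1 (46.1 to 63.2) and Tgfbr2 (39.3 to 45.7), and Smad2 (6.57 to 7.71) was the lowest. In ILC1, Tgfb1 had the highest level in every library (38.9 to 81.4 RPKM) and Smad2 (3.50 to 8.64) the lowest in 4 of 5, since Skil was lower in vehicle 3 (7.73 RPKM). Read in each library as the share of tested genes below it, Smad3 exceeded 90.3 to 92.4% of genes in NK cells, and 73.7 to 84.5% in ILC1. The same share for Smad2 lay at 27.3 to 32.4% in NK cells, against 22.5 to 34.8% in ILC1.

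**Figure D1:**
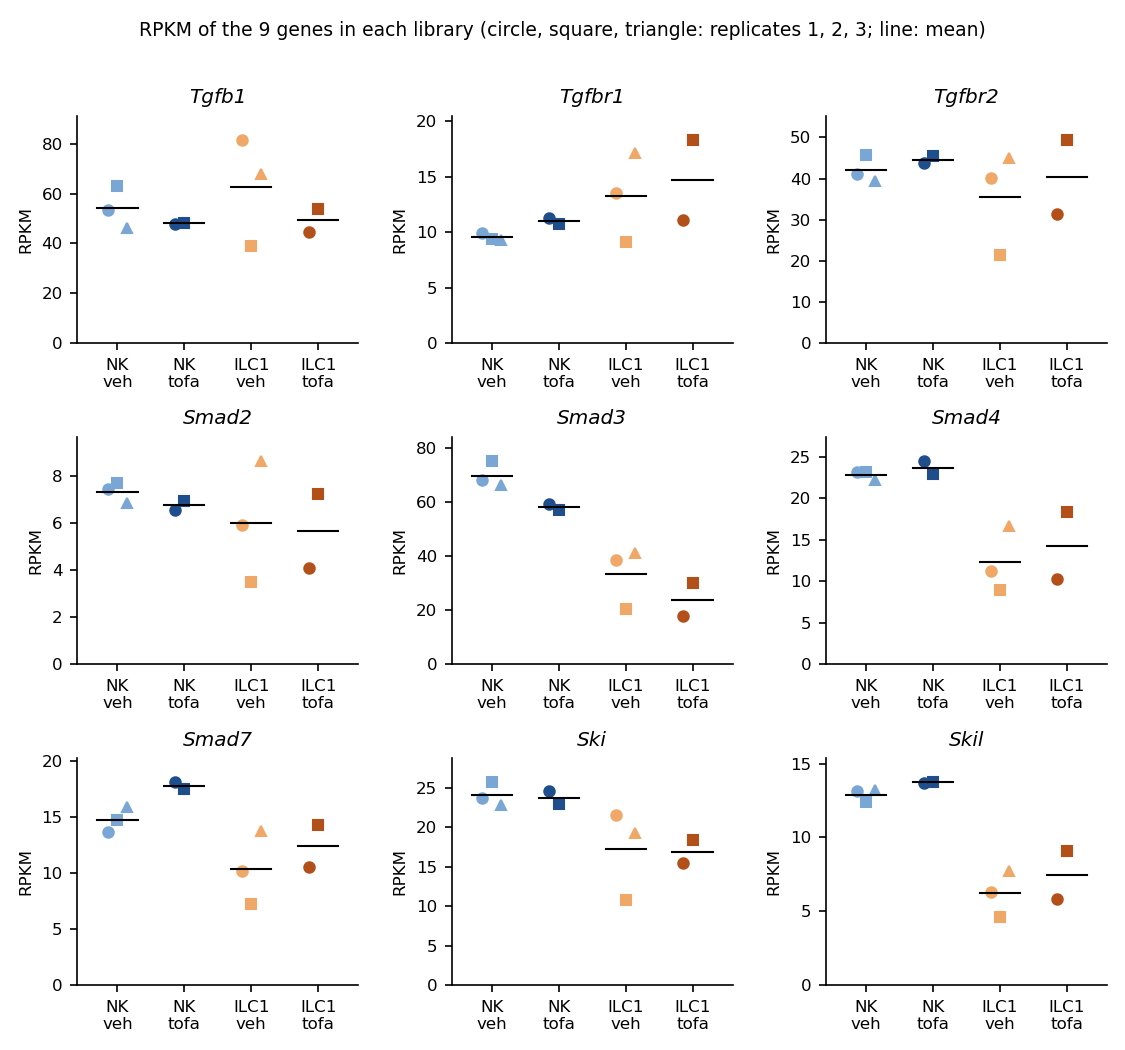
RPKM of the 9 genes in each of the 10 libraries, 1 panel per gene with its own axis from 0. Points are libraries (veh, vehicle; tofa, tofacitinib) and lines are group means. In NK cells, the tofacitinib libraries lie outside the vehicle range for Tgfbr1, Smad3, Smad7 and Skil, while in ILC1 the groups overlap for every gene.

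None of the 9 genes changed in NK cells at an adjusted p under 0.05 (limma, Benjamini-Hochberg over 9472 genes), where 4.81% of all genes tested did. At an unadjusted p under 0.05, 3 of the 9 stood out, 1 lower (Smad3) and 2 higher (Tgfbr1 and Smad7), against 23.3% of all genes. The tofacitinib libraries lay above all vehicle libraries for 3 members (20.2% of all genes) and below them for 1 member (23.9%), apart in all for 4 of 9 against 44.1%. In ILC1, 0 members were called by limma, with 0 at an unadjusted p under 0.05, where 0.47% and 2.22% of 9366 genes were. The groups of ILC1 libraries overlapped for all 9 members, and 5.5% of all genes were apart. The median change of the 9 genes was 0.05 in NK cells and 0.15 in ILC1, beside -0.01 and 0.01 over all genes tested.

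In scaled ILC1, where all libraries have the same median, the spread between libraries was smaller. The median standard error of a change fell from 0.49 to 0.14 on the log2 scale. Of the 9 genes, 0 were then called by limma (2.67% of all genes), 1 had an unadjusted p under 0.05 (17.5% of all genes), and the groups were apart for 5 (36.0% of all genes): Smad3 and Tgfb1 lower, and Tgfbr2, Smad7 and Skil higher with tofacitinib (18.9% of genes below and 17.1% above). Smad3 below, and Smad7 and Skil above, were thus on the same side in scaled ILC1 and scaled NK cells, as were 10.4% of 8981 genes below and 9.13% above.

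**Figure D2:**
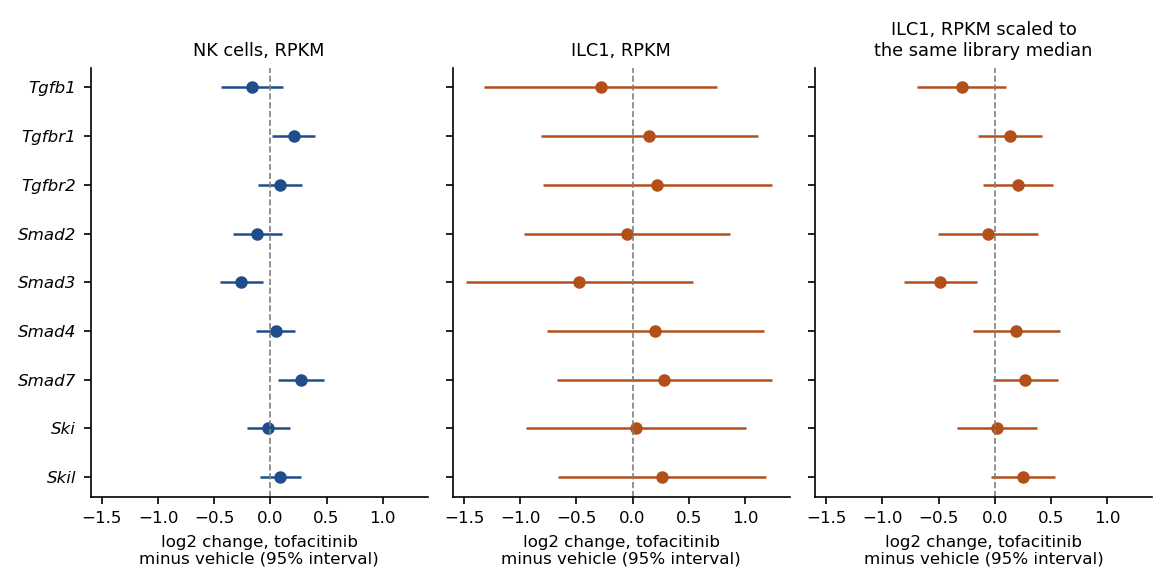
Log2 change with tofacitinib of each of the 9 genes, with its 95% interval, in NK cells (left), in ILC1 from RPKM as deposited (middle) and in ILC1 after scaling to the same library median (right). The intervals of Tgfbr1, Smad3 and Smad7 exclude 0 in NK cells and that of Smad3 in scaled ILC1, before adjustment for the number of genes tested.

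Smad3, the receptor-regulated Smad that binds DNA directly, was the member with the smallest p in both cell types. It lies on chromosome 9 (63646767 to 63757994, minus strand, GRCm38, the build named mm10 in the study). In NK cells its level was 68.1, 75.2 and 66.3 RPKM with vehicle and 59.4 and 57.0 RPKM with tofacitinib. Both tofacitinib libraries were below every vehicle library. The log2 change was -0.26 (SE 0.08, 95% interval -0.45 to -0.07, limma adjusted p = 0.112). In ILC1 the level was 38.7, 20.5 and 41.4 RPKM with vehicle and 17.7 and 30.0 RPKM with tofacitinib, so that the libraries of run B were the low ones of each group and the groups overlapped. The log2 change was -0.47 (SE 0.52, limma adjusted p = 1.0). Within run A Smad3 was lower with tofacitinib by a log2 difference of -0.46, and within run B by -0.21, or -0.43 and -0.44 relative to the median difference of all genes in each run. On the scaled values the groups were apart, 35.4, 29.4 and 34.2 with vehicle against 21.5 and 25.6 with tofacitinib (log2 change -0.49, SE 0.14, limma adjusted p = 0.128). Without ILC1 tofacitinib 1, the ILC1 library with high neutrophil and erythroid sums, the change in RPKM was -0.09, while the run A difference above does not involve that library.

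The stretch of 250 bases before the Smad3 start site is shown with that of Tgfbr1, as the pair of members that stood on opposite sides of vehicle in NK cells and for which a promoter could be matched. Sequences are from RefSeq (GRCm38.p6), 5 of the 9 genes matched (Tgfb1, Tgfbr1, Tgfbr2, Smad3 and Ski), with 6 windows because Tgfbr1 has another start site further into the gene, and capitals mark GTCT or its reverse complement, the core to which Smad3 and Smad4 bind.
Smad3, chr9:63757995-63758244, minus strand: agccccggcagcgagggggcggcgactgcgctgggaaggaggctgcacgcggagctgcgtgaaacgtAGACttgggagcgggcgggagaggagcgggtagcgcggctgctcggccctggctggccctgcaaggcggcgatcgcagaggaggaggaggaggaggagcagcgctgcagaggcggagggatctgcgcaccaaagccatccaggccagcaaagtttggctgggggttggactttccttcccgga
Tgfbr1, chr4:47352972-47353221, plus strand: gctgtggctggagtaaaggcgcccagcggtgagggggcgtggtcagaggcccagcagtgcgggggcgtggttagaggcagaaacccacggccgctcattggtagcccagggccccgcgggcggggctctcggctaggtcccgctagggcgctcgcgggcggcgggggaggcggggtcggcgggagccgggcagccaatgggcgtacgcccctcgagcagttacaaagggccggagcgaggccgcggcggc
The Smad3 window holds 1 such core, on the reverse strand, beginning 183 bases before the start site, and the Tgfbr1 window shown holds 0, whereas 82.9% of the 32851 mouse windows of this length hold at least 1 on either strand. The other Tgfbr1 window (chr4:47385966-47386215, plus strand) holds 2 cores, of which 1 is part of the longer form CAGAC. That form was in neither of the windows shown (42.2% of all windows hold it). The palindrome GTCTAGAC (0.167%) and TTCNNNGAA, the motif of STAT5 (7.02%), were in none of the Smad3 and Tgfbr1 windows. GC content was 69.2% in the Smad3 window, 74.8% in the Tgfbr1 window shown and 52.8% in the other. These matches describe letters in a window and not binding.

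**Figure D3:**
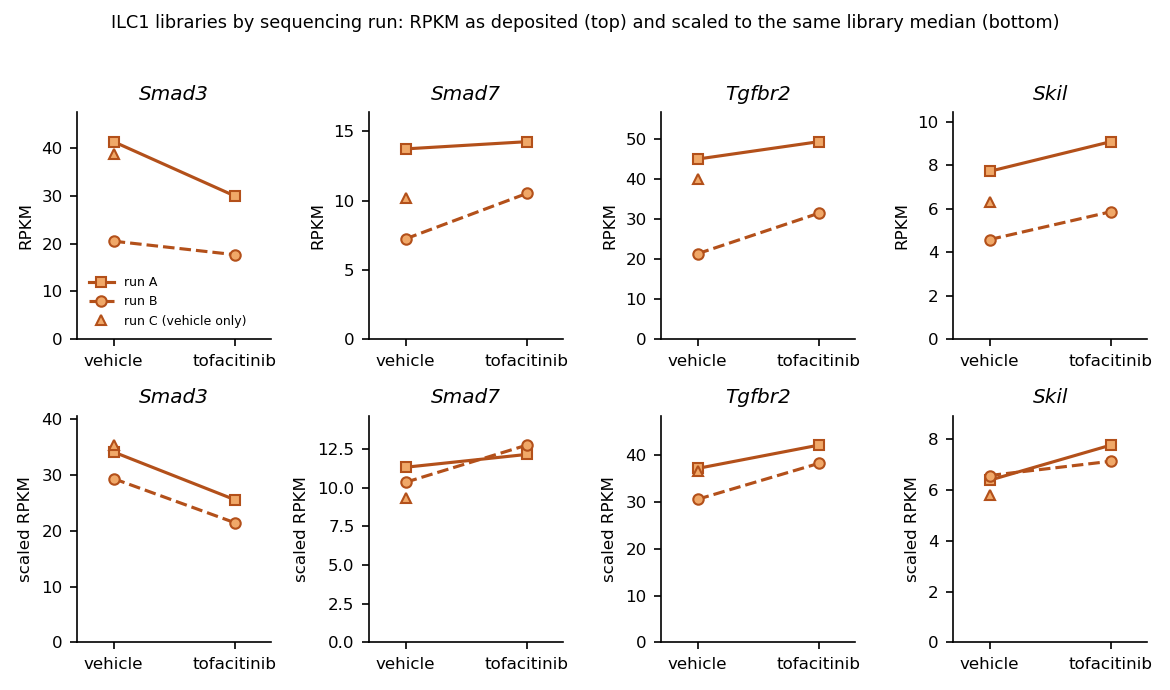
Levels of Smad3, Smad7, Tgfbr2 and Skil in the 5 ILC1 libraries, as RPKM (top) and as RPKM scaled to the same library median (bottom). Lines join the vehicle and tofacitinib library of 1 sequencing run, and the triangle is the vehicle library of run C. In both runs Smad3 was lower, and Smad7, Tgfbr2 and Skil were higher, in the tofacitinib library, and scaling brought the runs closer to each other.

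Smad2, the other receptor-regulated Smad, which binds DNA only with its partners, was the least abundant member (chromosome 18, 76241580 to 76310963). In NK cells it was at 7.44, 7.71 and 6.87 RPKM with vehicle and 6.57 and 6.96 RPKM with tofacitinib, and the groups overlapped. Its log2 change was -0.12 in NK cells (SE 0.10, limma adjusted p = 0.507). In ILC1 it ranged from 3.50 to 8.64 RPKM with vehicle and from 4.08 to 7.25 RPKM with tofacitinib, with overlapping groups on both scales and a log2 change of -0.05 (SE 0.47). Smad3 was thus the major receptor-regulated Smad transcript in both cell types: per length, it exceeded Smad2 8.19 to 9.76 times in NK libraries, and 4.14 to 6.55 times in those of ILC1. The ranges of this ratio did not overlap between the cell types, which also differ in organ, sort gate and table. How many gene pairs are apart in this way was not counted.

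Smad4, the common partner of Smad2 and Smad3 (chromosome 18, 73639009 to 73703780), varied little in NK cells. It was at 23.2, 23.2 and 22.2 RPKM with vehicle and 24.5 and 22.9 RPKM with tofacitinib. The log2 change was 0.05, with a 95% interval of -0.12 to 0.22 (limma adjusted p = 0.733). In ILC1 it was at 11.3, 8.91 and 16.7 RPKM with vehicle and 10.2 and 18.3 RPKM with tofacitinib, a log2 change of 0.20 (SE 0.49). Groups overlapped in ILC1 on both scales.

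Smad7, the inhibitory Smad that blocks the type I receptor and is itself induced by TGF-beta (chromosome 18, 75367529 to 75395935), showed the opposite pattern to Smad3. In NK cells it was at 13.6, 14.7 and 15.9 RPKM with vehicle and 18.1 and 17.5 RPKM with tofacitinib, both above every vehicle library. The log2 change was 0.27 (SE 0.09, 95% interval 0.07 to 0.47, limma adjusted p = 0.114). In ILC1 it was at 10.2, 7.23 and 13.7 RPKM with vehicle and 10.5 and 14.3 RPKM with tofacitinib, and the groups overlapped. After scaling they were apart, 9.31, 10.4 and 11.3 against 12.8 and 12.2, and differed by 0.27 on the log2 scale (SE 0.12, limma adjusted p = 0.310). Within runs A and B the log2 difference was 0.05 and 0.53, or 0.09 and 0.31 relative to all genes.

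The type I receptor gene Tgfbr1 (chromosome 4, 47353222 to 47414931) was at 9.92, 9.37 and 9.31 RPKM in vehicle NK cells and 11.3 and 10.7 RPKM in tofacitinib NK cells. The tofacitinib libraries were the highest of the 5. The log2 change was 0.21 (SE 0.08, 95% interval 0.01 to 0.40, limma adjusted p = 0.188). In ILC1 it was at 13.5, 9.10 and 17.1 RPKM with vehicle and 11.1 and 18.3 RPKM with tofacitinib, with overlapping groups on both scales and a log2 change of 0.15 (SE 0.49). Tgfbr2, the type II receptor that binds the ligand (chromosome 9, 116084293 to 116175360), was at 41.1, 45.7 and 39.3 RPKM with vehicle and 43.8 and 45.4 RPKM with tofacitinib in NK cells, and the groups overlapped (log2 change 0.09, SE 0.09, limma adjusted p = 0.578). In ILC1 it was at 40.1, 21.3 and 44.9 RPKM with vehicle and 31.4 and 49.3 RPKM with tofacitinib. These overlapped, and the scaled values were apart, 36.6, 30.5 and 37.1 against 38.2 and 42.1 (log2 change 0.21, SE 0.13, limma adjusted p = 0.472).

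Tgfb1, the ligand and the only TGF-beta isoform above 5 RPKM, lies on chromosome 7 (25687002 to 25705077). In NK cells it was at 53.5, 63.2 and 46.1 RPKM with vehicle and 47.9 and 48.2 RPKM with tofacitinib. The tofacitinib values lay within the vehicle range, and the log2 change was -0.16 (SE 0.12, limma adjusted p = 0.453). In ILC1 it was at 81.4, 38.9 and 67.8 RPKM with vehicle and 44.8 and 54.0 RPKM with tofacitinib (log2 change -0.28, SE 0.53). The scaled groups were apart by a narrow margin, the lowest vehicle value being 55.7 and the highest tofacitinib value 54.4.

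The corepressors Ski and Skil bind Smad complexes and hold their targets silent. A difference between their changes was not tested. Ski (chromosome 4, 155154075 to 155222592) was at 23.8, 25.7 and 22.8 RPKM in vehicle NK cells and 24.6 and 23.0 RPKM in tofacitinib NK cells. Its log2 change was -0.02 in NK cells (95% interval -0.21 to 0.17) and 0.03 in ILC1 (95% interval -0.95 to 1.01), where it ranged from 10.8 to 21.6 RPKM. Skil (chromosome 3, 31095058 to 31122577) was at 13.1, 12.4 and 13.2 RPKM with vehicle and 13.7 and 13.7 RPKM with tofacitinib in NK cells. Both tofacitinib libraries exceeded all vehicle libraries, by 0.09 on the log2 scale (SE 0.08, limma adjusted p = 0.532). In ILC1 it was at 6.33, 4.58 and 7.73 RPKM with vehicle and 5.86 and 9.09 RPKM with tofacitinib. The scaled values were apart, 5.79, 6.56 and 6.38 against 7.12 and 7.76 (log2 change 0.25, SE 0.12, limma adjusted p = 0.338).

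The responses of the cell types were compared in 1 model of all 10 libraries. None of the 9 genes differed in response between ILC1 and NK cells by limma (0 at an unadjusted p under 0.05), where 0.145% of 8981 genes were called and 0.835% had an unadjusted p under 0.05. The difference of log2 changes, ILC1 minus NK cells, lay between -0.21 (Smad3) and 0.17 (Skil), with standard errors of 0.45 to 0.49. For Smad3 the 95% interval ran from -1.17 to 0.75, and after scaling from -0.56 to 0.10. After scaling 0 of the 9 genes were called and 0 had an unadjusted p under 0.05, against 0.0223% and 6.59% of genes.

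Ratios within a library do not depend on its overall scale, and were examined after the values above had been seen, as a description without a test. Smad3 to Smad7, transducer to inhibitor, was 5.0, 5.12 and 4.18 in vehicle NK cells and 3.29 and 3.26 in tofacitinib NK cells. In ILC1 this ratio was 3.80, 2.84 and 3.01 with vehicle and 1.68 and 2.11 with tofacitinib. Every tofacitinib library was below every vehicle library of its cell type. Smad3 to Smad4 showed the same order, from 2.93 to 3.24 with vehicle to 2.43 and 2.49 with tofacitinib in NK cells, and from 2.30 to 3.43 with vehicle to 1.73 and 1.64 with tofacitinib in ILC1. Smad3 to Smad2 did so too (9.15 to 9.76 against 9.05 and 8.19 in NK cells, 4.79 to 6.55 against 4.33 and 4.14 in ILC1). So did Tgfb1 to Tgfbr2 (1.17 to 1.38 against 1.09 and 1.06 in NK cells, 1.51 to 2.03 against 1.43 and 1.095 in ILC1). Treatment groups overlapped for Ski to Skil in both cell types. How many other gene pairs show such an order was not counted. The Smad3 ratios share Smad3, whose lower level is given above, and are not separate observations. The ratio of the receptors, Tgfbr2 to Tgfbr1, was 3.87 to 4.88 in all NK libraries and 2.34 to 2.96 in all ILC1 libraries. Treatment groups overlapped for this ratio in both cell types. The share of gene pairs apart between the cell types was not counted, and organ, sort gate and table differ along with cell type.

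**Figure D4:**
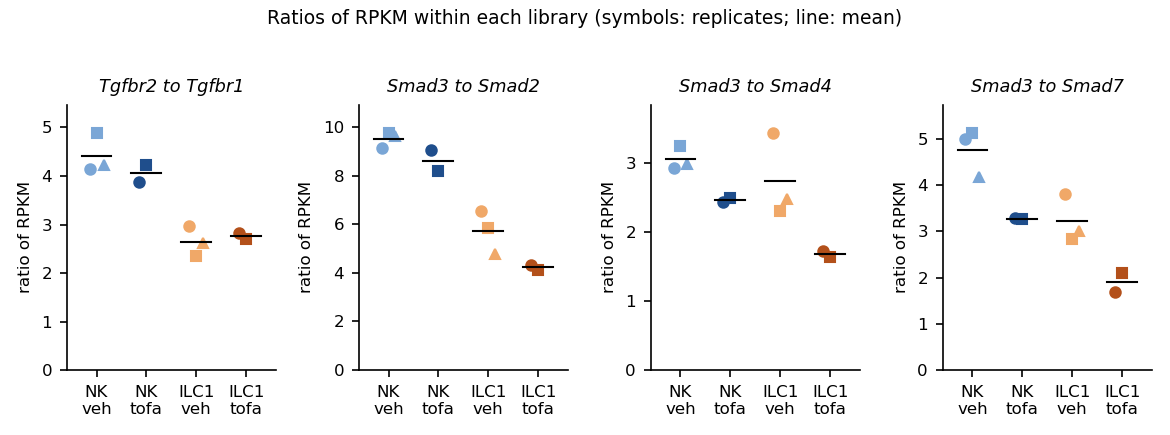
Ratios of RPKM of gene pairs within each library, with group means as lines and axes from 0. Smad3 to Smad2, Smad3 to Smad4 and Smad3 to Smad7 were lower in every tofacitinib library than in the vehicle libraries of the same cell type. Tgfbr2 to Tgfbr1 lay between 3.87 and 4.88 in NK cells, above the 2.34 to 2.96 of ILC1.

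Vehicle libraries were next compared between cell types, without a test, because the tables of NK cells and ILC1 were made separately, and cell type, organ, sort gate and table cannot be told apart. Smad3 was lower in ILC1, 33.5 ± 11.4 RPKM (SD, n = 3) against 69.9 ± 4.73 RPKM (SD, n = 3) in NK cells. Smad4 was lower in ILC1 as well, 12.3 ± 3.98 RPKM against 22.9 ± 0.604 RPKM. Skil followed with 6.21 ± 1.58 RPKM in ILC1 against 12.9 ± 0.456 RPKM in NK cells. For these 3 genes the ranges were apart both in RPKM and in values scaled to 1 median over the 10 libraries, with NK levels 1.78, 1.57 and 1.74 times those of ILC1 on the scaled values. Ski was apart in RPKM alone and Smad7 in scaled values alone, both lower in ILC1. In RPKM, 4 of 9 members were lower in ILC1 with ranges apart and 0 were higher, against 30.5% and 5.43% of 8981 genes. After scaling, 4 were lower and 2 higher (Tgfbr1, 1.64 times, and Tgfb1, 1.36 times the NK level), against 26.4% and 26.3% of genes. Tgfbr2 and Smad2 overlapped on both scales. T cell markers, 10 of 10 listed, summed to 144 to 285 RPKM in ILC1 and 38.6 to 44.3 RPKM in NK cells. Most of the ILC1 sum was Cd3g (118 to 247 RPKM), while Cd3e was at 2.14 to 4.82 RPKM. B cell markers, 8 of 8 listed, summed to 75.9 to 122.6 RPKM in NK cells and 6.28 to 25.2 RPKM in ILC1. Liver endothelial markers, 8 of 8, summed to 69.2 to 92.8 RPKM in NK cells and 12.3 to 21.7 RPKM in ILC1. The part of these cells in the levels of the 9 genes was not tested.

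The 3 genes whose pattern over the 10 libraries was most like that of Smad3, after the mean of each cell type was subtracted, were Erh (r = 0.999), Nol9 (r = 0.997) and Me2 (r = 0.995), out of 8980 genes. These correlations describe libraries that share runs and depth.

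Beyond the 9 genes, 95 other genes of the TGF-beta superfamily pathway were listed, of which 55 passed the filter in NK cells and 56 in ILC1. In either cell type, 0 were called by limma. At an unadjusted p under 0.05 there were 3 lower and 3 higher of 55 in NK cells, where 13.1% of all genes were lower and 10.2% higher, and 0 of 56 in ILC1, where 2.22% of all genes were under this level in either direction. The median log2 change was 0.02 in NK cells and 0.11 in ILC1. In NK cells the 3 lower genes were all in the Smad-independent branch, of which 8 were tested (13.1% of all genes were lower at this level). Tab1 and Tab2, which activate the kinase Tak1, went from 6.83 ± 1.28 to 4.79 ± 0.177 RPKM and from 65.6 ± 2.01 to 53.9 ± 0.0369 RPKM, with log2 changes of -0.49 and -0.28 (limma adjusted p = 0.0990 and 0.0668). The small GTPase Rhoa went from 179 ± 22.5 to 145 ± 6.12 RPKM (adjusted p = 0.152). Among 8 adaptors and receptor regulators, Hgs, an endosomal protein that helps present Smads to the receptor, went from 21.7 ± 1.3 to 26.5 ± 0.0531 RPKM (log2 change 0.29, limma adjusted p = 0.0768). Ldlrad4, a membrane-bound inhibitor of Smad2 and Smad3 phosphorylation, went from 4.78 ± 0.233 to 5.88 ± 0.700 RPKM in NK cells (adjusted p = 0.183) and from 2.23 ± 0.823 to 3.92 ± 0.918 RPKM in ILC1 (log2 change 0.83, limma adjusted p = 1.0). Among receptors, Bmpr2, a type II receptor of bone morphogenetic proteins, went from 3.25 ± 0.153 to 4.01 ± 0.0441 RPKM in NK cells (adjusted p = 0.189). The ubiquitin ligases, deubiquitinases and phosphatases that act on receptors and Smads had 15 tested genes and 0 at an unadjusted p under 0.05 in each cell type, as had the nuclear partners of Smads (13 in NK cells and 12 in ILC1).

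Some pathway genes had a higher level in 1 cell type. The examples given were picked after their values had been seen, and the share of all genes with such a difference was not counted. In vehicle ILC1 the ligand Gdf11 was at 13.5 RPKM (1.11 in vehicle NK cells), the gelatinase Mmp9, which can release latent TGF-beta, at 18.2 RPKM (0.0907), the integrin subunit Itgav at 29.3 RPKM (8.76), and the coreceptor Eng at 4.25 RPKM (0.505). In vehicle NK cells the transcription factor Zeb2, which binds Smads, was at 28.2 RPKM (0.466 in vehicle ILC1), the coreceptor Tgfbr3 at 1.79 RPKM (0.127), and the corepressor Tgif1 at 7.54 RPKM (1.90). Smad6, the inhibitory Smad of the bone morphogenetic protein branch, was below 0.15 RPKM in every vehicle library.

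Of 21 genes listed as induced by TGF-beta, 14 were tested in each cell type, and 3 of those, Smad7, Ski and Skil, are members. In NK cells 1 was called higher, against 1.79% of all genes, and 0 lower. This was Jun, a subunit of AP-1 and an immediate early gene, which went from 4.84 ± 2.18 to 24.4 ± 7.69 RPKM (log2 change 2.36, SE 0.31, limma adjusted p = 0.0055). Jun kept the call without any 1 library and lost it with no filter on low values or an ordinary variance of each gene (adjusted p = 0.237 and 0.226). At an unadjusted p under 0.05, 7 were higher and 0 lower, against 10.2% and 13.1% of all genes. Besides Jun, Smad7 and Ldlrad4 these were Klf11, Junb, Rgs1 and Rgs2, named after their values had been seen, with log2 changes of 0.34 to 0.61 in NK cells. The median change of the list was 0.28, beside -0.01 over all genes. Others of the list did not follow: Id2 had a log2 change of -0.23 and Bhlhe40 of -0.21, neither called. In ILC1 0 of 14 were called by limma, 1 (Jun, from 45.0 ± 14.5 to 97.4 ± 51.0 RPKM) had an unadjusted p under 0.05 (0.811% of all genes were higher at this level), and the median was 0.26. Several of the 21 were near 0 in both cell types, among them Ctgf and Tgfbi.

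**Figure D5:**
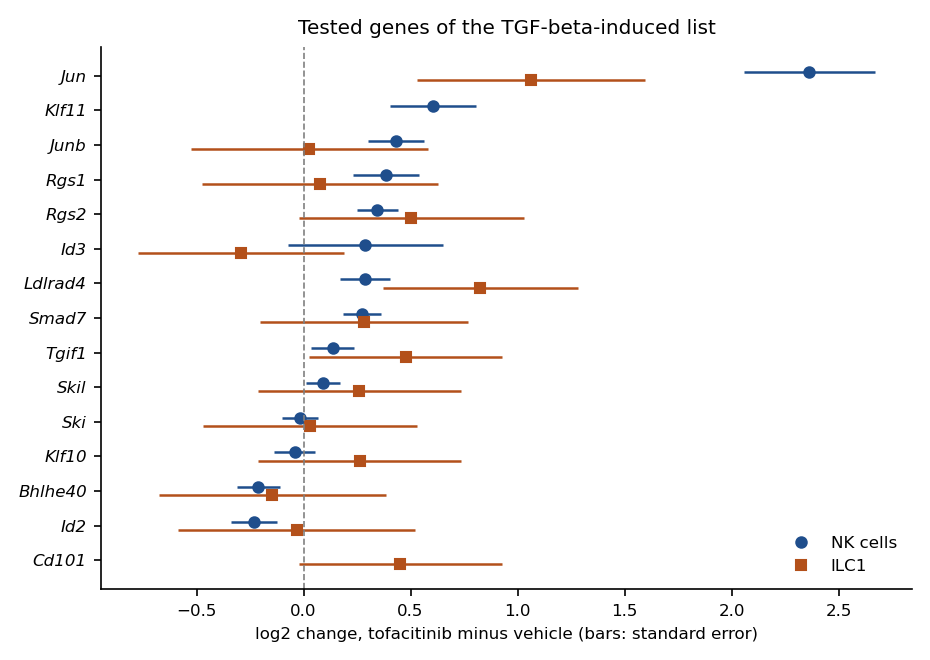
Log2 change with tofacitinib, with its standard error, of the genes of the TGF-beta-induced list that were tested in NK cells (circles) or ILC1 (squares), ordered by the change in NK cells. Jun was the 1 gene called (2.36 in NK cells), and Smad7 was at 0.27 in NK cells and 0.28 in ILC1.

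Traits that TGF-beta is known to imprint on ILC1-like and tissue-resident cells were covered by a second list of 22 genes. In NK cells 16 were tested, 3 were called lower and 1 higher, against 3.02% and 1.79% of all genes. The 3 lower genes were Gzmb, the cytotoxic protease granzyme B, the integrin Itga2, and Nt5e, the ectoenzyme CD73. Itga2 encodes DX5, and ILC1 were sorted as DX5dim. Its higher level in NK cells than in ILC1 cannot be told apart from that gate. Itga2 went from 59.1 ± 3.29 to 44.4 ± 3.72 RPKM (log2 change -0.41, SE 0.09, limma adjusted p = 0.0358), and Nt5e from 4.74 ± 0.203 to 3.15 ± 0.144 RPKM (log2 change -0.57, SE 0.12, limma adjusted p = 0.0300). Without NK vehicle 1, vehicle 3, tofacitinib 1 or tofacitinib 2 neither of these held its call, with adjusted p of 0.103, 0.0582, 0.183 and 0.335 for Itga2 and 0.0833, 0.0582, 0.228 and 0.240 for Nt5e. The higher gene was Il7r, the interleukin-7 receptor, with a log2 change of 1.25 (limma adjusted p = 0.0012). Its log2 change in ILC1 was 1.91, not called (limma adjusted p = 0.0557). In ILC1 18 were tested and Gzmb alone was called (0.278% of all genes were called lower), with a log2 change of -2.58 (limma adjusted p = 0.0017), and it lost the call without vehicle 1, vehicle 3 or tofacitinib 1 (adjusted p = 0.340, 0.328 and 0.983). The median change of the list was -0.05 in NK cells and 0.11 in ILC1. Itgae, the integrin CD103 that TGF-beta induces in tissue-resident lymphocytes, was below 1 RPKM in the vehicle mean of both cell types and was not tested.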

How the data were processed

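RNA was measured in 10 libraries, 5 of splenic NK cells and 5 of liver ILC1. Per the labels and methods, reads were processed with CASAVA 1.8.2, aligned to mm10 with TopHat2 2.1.1, and converted to RPKM by the authors in Partek. The annotation used is not given in the sources used here. The deposited RPKM values cover 24981 genes in separate tables of NK cells and ILC1. Deposited columns of fold changes and p-values from the authors' analysis of variance were not used. The 1296 names starting with Mir or Snor were left out. RPKM values carry no counts, so precision comes from the spread between libraries. The library kit does not mark strand. In the GENCODE annotation, no exon of the 9 genes overlapped an exon of another gene. The tables list 0 other columns of sample values.

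Tofacitinib and vehicle libraries of a cell type were compared on log2(RPKM + 0.1) with limma 3.58.1 under R 4.3.3 (two-sided, empirical Bayes, variance trend), following the offset of the study, over genes whose mean of log2(RPKM + 0.1) exceeded 1 in at least 1 group. P-values were adjusted by the Benjamini-Hochberg method across every tested gene, and called under 0.05. The difference of response was the interaction in a joint fit. Scaled RPKM are multiplied so that tested genes have the same median in each library. The fit was tested on simulated data. In ILC1 the variance of each gene followed the trend alone. Named genes are the 9 members, called genes of the other lists, up to 3 per list with the largest change where none was called, and genes chosen after their values were seen, which are marked. The members and lists were chosen with earlier results of these data known. A gene first placed in the TGF-beta-induced list was taken off it and is not reported here.

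Alternatives were another pseudocount (1), no filter, scaling, quantile normalization, limma without trend, an ordinary variance of each gene, library weights, each library left out, and blocks by replicate number, run or letter. Whether the replicate numbers in the titles mark shared animals is not stated. The sample sheets give a run for each ILC1 library and a letter for each NK library.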

Additional observations from a re-analysis of the deposited data

How the results depend on the processing

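The 9 genes had 0 calls in either cell type and 0 for a difference of response under every alternative but 1, a block by the replicate number in the titles. With that replicate block, which keeps only the numbers shared by both groups, 2 members were called lower and 1 higher in NK cells: Tgfb1 (-0.27, limma adjusted p = 0.0406), Smad3 (-0.30, 0.0265) and Smad7 (0.33, 0.0213), with 1150 genes lower and 664 higher. Deviations of same-numbered libraries from their group means correlated at 0.02 and 0.14 in NK cells and 0.16 and -0.63 in ILC1. Those of the same letter in NK cells correlated at -0.14 and -0.16. The 2 tofacitinib libraries of a cell type deviate by equal and opposite amounts, so these values are not independent. They cannot tell whether same-numbered libraries share more than a number. In ILC1 the number block gave 0 genes lower and 2 higher and a Smad2 change of 0.25, and differences of response of 0.080 (Tgfb1), 0.17 (Tgfbr1) and 0.0078 (Smad3). Deviations correlated within ILC1 runs (r = 0.63 and 0.78). A block by run gave 219 genes lower and 186 higher in ILC1, the letter block gave 286 genes higher in NK cells, and both gave 0 members (smallest adjusted p of a member 0.567 and 0.280). In the joint fit the block by run or letter turned the difference of response of Tgfb1 to 0.10.

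Counts of all called genes moved with the processing. In NK cells (286 lower, 170 higher) they were 24 and 71 with no filter, 0 and 0 with an ordinary variance of each gene, and 111 higher without the trend. In ILC1 (26 and 18) they were 0 and 0 with no filter or an ordinary variance, 204 and 46 after scaling, and 187 and 56 after quantile normalization. Leaving out 1 library gave 28 to 434 genes lower and 9 to 356 higher in NK cells, and 1 to 91 lower and 5 to 29 higher in ILC1.

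Leaving out 1 library turned the direction of Ski in NK cells (-0.065 to 0.030), and in ILC1 of Tgfbr1 (-0.21 to 0.51), Tgfbr2 (-0.11 to 0.55), Smad2 (-0.46 to 0.36), Smad4 (-0.21 to 0.62), Ski (-0.28 to 0.22) and Skil (-0.051 to 0.57). Smad3 and Smad7 kept their direction in both cell types, at -0.30 to -0.21 and 0.22 to 0.33 in NK cells and -0.85 to -0.09 and 0.05 to 0.51 in ILC1. The difference of response ranged from -0.43 to 0.10 for Tgfb1, -0.42 to 0.30 for Tgfbr1, -0.20 to 0.46 for Tgfbr2, -0.34 to 0.47 for Smad2, -0.59 to 0.17 for Smad3, -0.26 to 0.57 for Smad4, -0.22 to 0.23 for Smad7, -0.26 to 0.24 for Ski and -0.14 to 0.48 for Skil, and scaling turned that of Smad7 to -0.0091. The causes were not tested. The calls of Jun, Il7r, Gzmb, Itga2 and Nt5e in NK cells and of Gzmb in ILC1 were lost with no filter and with an ordinary variance of each gene. Without NK tofacitinib 1 or 2, 0 members had an unadjusted p under 0.05 in NK cells. The spread between ILC1 libraries and the 2 tofacitinib libraries per cell type limit what could be detected.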
